A study of Bos taurus with 2 samples.

Results

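The 10 genes described here belong to the WNT signalling pathway: the R-spondins RSPO1, RSPO2 and RSPO3, the ligands WNT1 and WNT3A, the receptors FZD10 and LGR5, and the secreted antagonists SFRP1, SFRP2 and FRZB. They were chosen by name, with earlier results of these data known, and are 10 of the 17846 genes in the count table. Their levels were compared across groups of neural and non-neural cells of the day 25 bovine (Bos taurus) embryo. The embryos were chimeras, made by incorporating bovine embryonic stem cells. The labels give 1 group of 2 libraries, replicate 1 and replicate 2, of single-cell RNA from flushed embryos that were dissociated with papain and sorted before loading. The sort gate is not described, so neither the shares of cell types nor the cells missed by the gate can be judged. Nor do the labels give the line, sex or number of embryos, any other treatment, or whether each library held different embryos, so p-values measure only the spread between these 2 libraries, which may be technical.

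WNT ligands are lipid-modified proteins that bind Frizzled receptors together with an LRP co-receptor and so stabilise β-catenin in the receiving cell. R-spondins carry no WNT signal themselves: they bind LGR receptors and keep the membrane ligases RNF43 and ZNRF3 from removing Frizzled receptors, which raises the response to WNT. SFRP proteins and FRZB resemble the ligand-binding part of a Frizzled receptor but are secreted, and they bind WNT ligands outside the cell. In vertebrate embryos the roof plate, the dorsal midline of the neural tube, and the cortical hem are known sources of WNT ligands and R-spondins.

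The deposited counts held 1973 and 2464 barcodes in replicates 1 and 2, with 11182089 and 15427708 UMI, the molecular tags by which a captured transcript is counted once. After filters, 1842 and 2310 cells with a median of 5232 and 5966 UMI were used. The libraries shared 6 barcodes, of which 2 were among the cells used. Clustering without the WNT pathway genes gave 25 clusters, of which 18 had at least 20 cells in each library and were tested. Clusters 0, 1, 2, 5, 8, 12 and 18 were neural progenitor-like by their markers, 6 and 14 neuron-like and 13 mesenchyme-like. Small clusters were trophoblast-like (17 cells), erythroid-like (31), epithelium-like (28) and binucleate trophoblast-like (11), and the others kept their number. In clusters 3, 10 and 20 marker lists tied, in 4, 7, 11, 15 and 16 the leading genes held more markers of another list than of the best one, cluster 9 was shallow, and over 90% of the cells of 17 and of 22 came from 1 library. Levels are in CPM, a gene's UMI scaled to a fixed total of 1000000 for all UMI summed over a group in 1 library. They come from 3′ ends and are compared between groups for 1 gene, not between genes.

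Expression of the R-spondins was concentrated in cluster 4, a neural cluster of 60 and 82 cells that is called the LMX1A-high cluster here. LMX1A, a transcription factor of the roof plate, stood at 217 and 248 CPM in it, and the cluster held 46.3% of all LMX1A UMI. Its leading genes were TRPM3, SPARCL1, KCNC2, LMX1A and TTR, and 8 of the 9 neural progenitor markers in the table were detected. The 7 roof plate markers summed to 574 and 654 CPM, against 161 and 145 in all other cells, but progenitor-like cluster 0 had a like sum of 636 and 596 with LMX1A at 26.4 and 33.6 CPM. Cluster 4 was left without a cell type name by the rule on leading genes given above, not because of these sums. Its cells were deeper than the rest, with a median of 9108 UMI against 5523, and the part of depth in the results was not tested beyond the thinned shares given below.

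**Figure D1:**
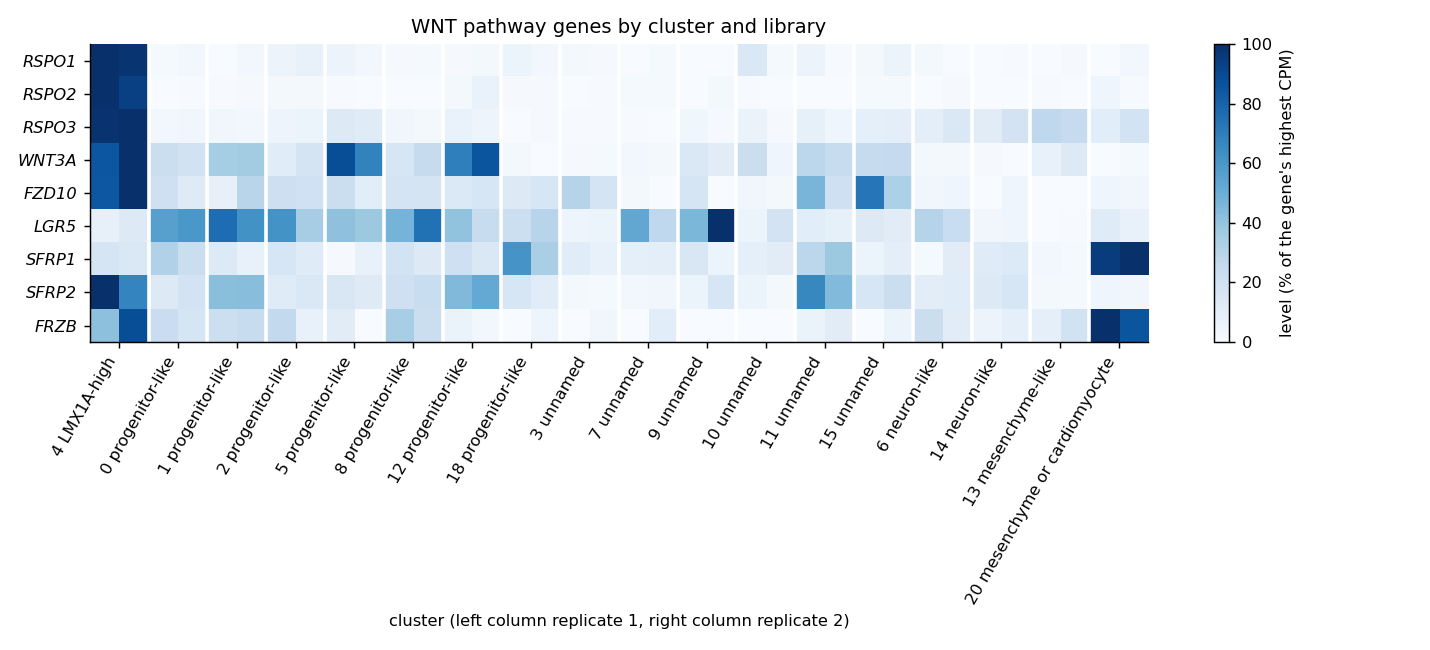
Level of each of the 10 genes but WNT1 in each cluster of at least 20 cells in each library. Levels are percentages of that gene's highest CPM among the clusters and libraries drawn. Each cluster has a left column for replicate 1 and a right column for replicate 2. RSPO1, RSPO2, RSPO3, FZD10 and SFRP2 peak in cluster 4, SFRP1 and FRZB are high in cluster 20, and LGR5 is spread over progenitor-like and other clusters. WNT1, with 5 UMI in all, is not drawn.

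RSPO2, an R-spondin known from limb and lung outgrowth, was the member most concentrated in the LMX1A-high cluster. Its level there was 553 CPM in replicate 1 (242 UMI) and 517 CPM in replicate 2 (390 UMI), against 4.23 and 5.99 CPM in all other cells. The log2 fold change was 6.82 (SE 0.16) by edgeR's quasi-likelihood test, with an adjusted p below the smallest number the program holds. That cluster held 82.7% of all RSPO2 UMI in 142 of 4152 cells. Both of its libraries lay above every other tested cluster, of which cluster 12 came next at 9.44 and 37.2 CPM. In cluster 12 the 47 UMI came from 7 of 390 cells, and 3 cells held 85.1% of them.

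RSPO1, an R-spondin known from ovary and gut, was also highest in the LMX1A-high cluster, with fewer UMI. It stood at 128 and 126 CPM in the LMX1A-high cluster (56 and 95 UMI) and at 4.42 and 2.68 CPM in all other cells. The log2 fold change was 5.35 (SE 0.29, edgeR adjusted p = 5.54e-73). No library of another tested cluster exceeded 18.4 CPM, so the groups did not overlap. How many of all genes separated clusters in this way was not counted, here or for the other members. Outside the tested clusters, binucleate trophoblast-like cells had 171 CPM of RSPO1 in replicate 1, but this was 11 UMI in 2 of 7 cells, with 8 in a single cell, and the 4 cells of replicate 2 had none.

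RSPO3, an R-spondin needed for placental and vascular development, was detected far more widely. The LMX1A-high cluster had 1258 and 1275 CPM (550 and 961 UMI) against 77.4 and 85.9 CPM in all other cells, a log2 fold change of 4.1 (SE 0.09) whose edgeR adjusted p was likewise too small to be held. It held 42.2% of all RSPO3 UMI. Mesenchyme-like cluster 13 was second, at 343 and 318 CPM, and its log2 fold change over all other cells was 2.13 (SE 0.16, edgeR adjusted p = 1.82e-36), or 1.38 with total counts alone in place of TMM (trimmed mean of M-values) scaling. Of all genes tested in cluster 13, 49.1% were called (21.5% higher and 27.5% lower), and 6 of the 9 tested members were called there, RSPO3 as the single rise. Cluster 13 in turn lay above clusters 14 (143 and 231 CPM), 20 (136 and 236 CPM) and 5 (165 and 154 CPM), whose values overlapped one another.

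**Figure D2:**
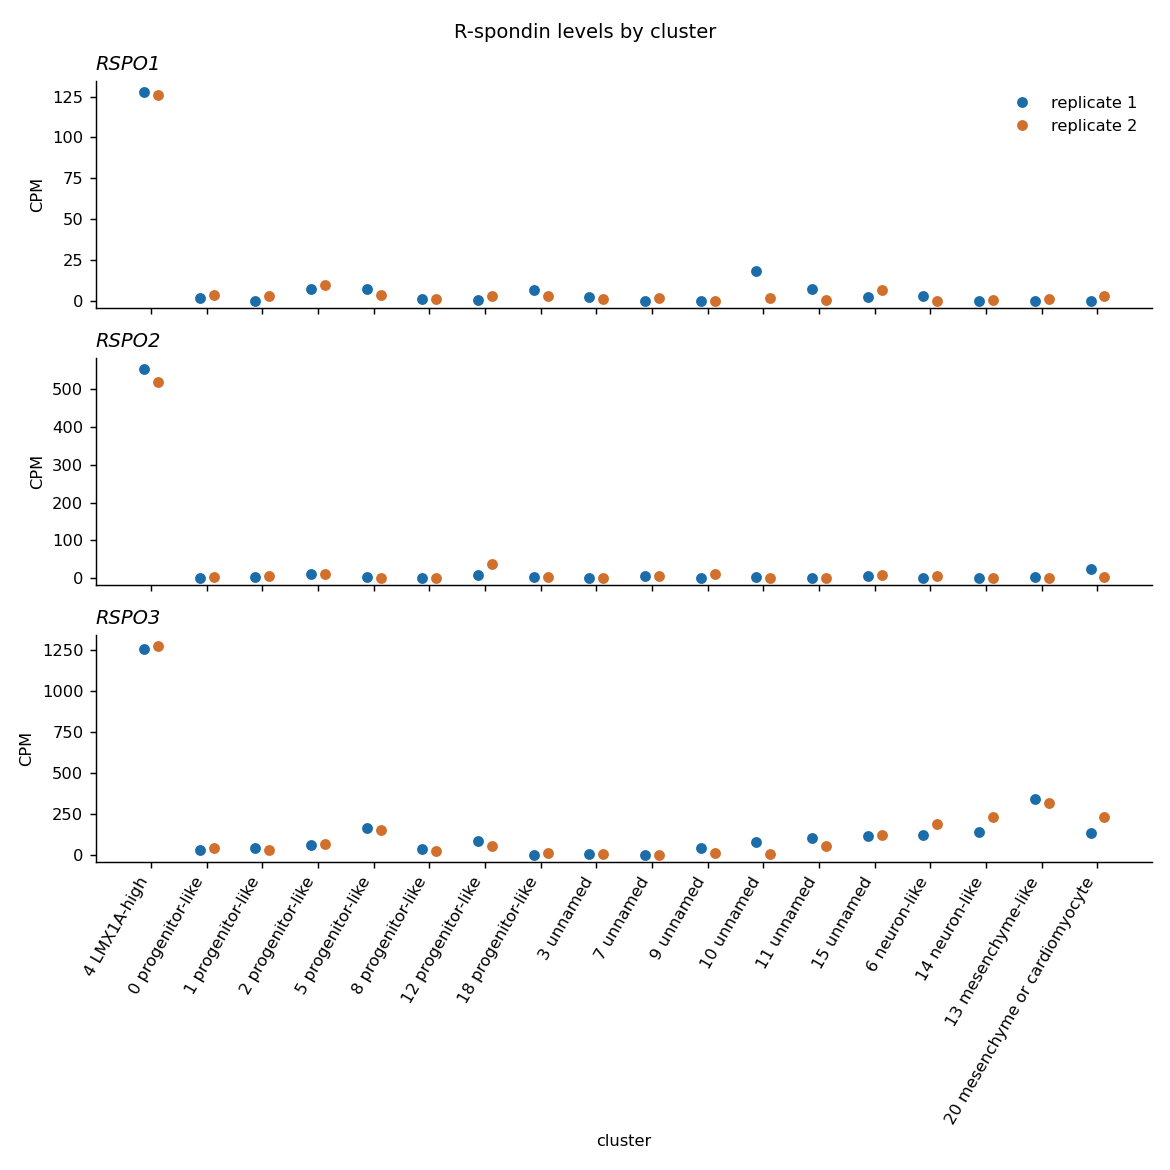
CPM of RSPO1, RSPO2 and RSPO3 in each cluster with at least 20 cells in each library; each point is 1 library, in 1 colour for replicate 1 and another for replicate 2. In cluster 4 the points lie at 128 and 126 CPM for RSPO1, 553 and 517 for RSPO2 and 1258 and 1275 for RSPO3, and RSPO3 alone has a second raised cluster, cluster 13, at 343 and 318 CPM.

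Shares of cells with a UMI were also taken after each cell was thinned to 2000 UMI, which left out 190 and 215 shallower cells. An RSPO3 UMI was found in 88.3% and 90.2% of the cells of the LMX1A-high cluster before thinning and in 73.7% and 78.8% after it. Mesenchyme-like cells had 40.6% and 46.9% after thinning, at 97.1% and 79.2% before, and neuron-like cells had 11.4% and 16.9%. For RSPO2 the LMX1A-high cluster had 51.7% and 39.0% of cells before and 38.6% and 33.8% after thinning, while cluster 12 had 0.649% and 1.74% after it. Erythroid-like cells, taken as a type that should lack R-spondins, had 1 RSPO3 UMI in 31 cells and none of RSPO1 or RSPO2, at a median of 24710 UMI per cell.

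Cells of the LMX1A-high cluster were not alike in their members. After thinning, RSPO3 was found about as often with as without RSPO2, in 72.7% of cells with RSPO2 and 74.3% of cells without it in replicate 1, and in 77.8% and 79.2% in replicate 2. SFRP2 was found more often in cells with RSPO2, in 1 of several pairs compared. In replicate 1 it was in 6 of 22 cells with RSPO2 (27.3%) against 4 of 35 without (11.4%). In replicate 2 it was in 12 of 27 (44.4%) against 2 of 53 (3.77%). A large part of the SFRP2 UMI of this cluster lay in few cells, as given below. Cells with an OTX2 UMI (31 and 31 cells; OTX2 marks forebrain and midbrain) had SFRP2 at 520 and 438 CPM, while cells with none (29 and 51) had 53.3 and 63.1 CPM. RSPO2 stood at 805 and 758 CPM in the cells with OTX2 and at 271 and 377 CPM in those without, and WNT3A at 260 and 276 against 111 and 191 CPM. RSPO1 was lower in the cells with OTX2, at 104 and 111 against 155 and 135 CPM. The median depth was 9166 against 9065 UMI. These splits are descriptions of cells in 2 libraries and carry no test.

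**Figure D3:**
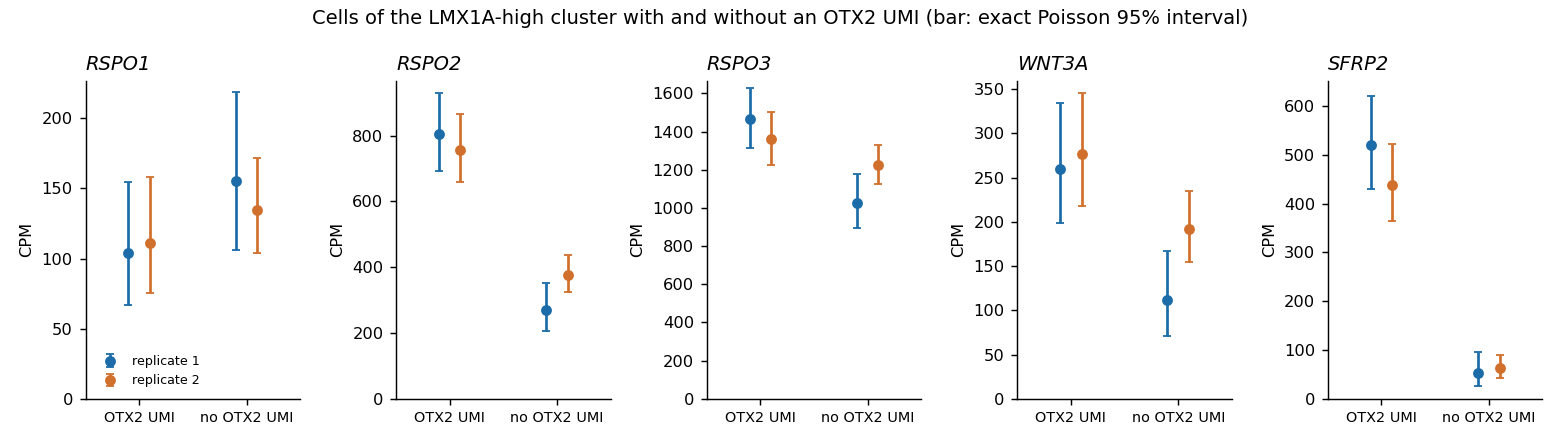
CPM of members in cells of the LMX1A-high cluster with and without an OTX2 UMI; each point is 1 library with its exact Poisson 95% interval, which covers counting error only. SFRP2 lies at 520 and 438 CPM with OTX2 and at 53.3 and 63.1 without, RSPO2 lies higher with OTX2 in both libraries, and RSPO1 lies lower.

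Among the ligands, WNT3A, a canonical WNT ligand of the dorsal midline and the tail bud, was shared between the LMX1A-high cluster and 2 progenitor-like clusters. It stood at 190 and 223 CPM in cluster 4, at 197 and 152 CPM in cluster 5 and at 154 and 191 CPM in cluster 12, so the 3 overlapped. The next, cluster 1, had 78.7 and 79.8 CPM and lay below all of them. Against all other cells the log2 fold change was 2.35 (SE 0.16, edgeR adjusted p = 1.43e-47) in cluster 4, 1.88 (SE 0.17) in cluster 5 and 2.02 (SE 0.13) in cluster 12. Of all genes tested, 19.2% were called higher in cluster 5 and 24.0% in cluster 12. PAX3, a dorsal neural tube gene, stood at 530 and 515 CPM in cluster 12 and at 91.0 and 91.3 CPM in cluster 5, and LMX1A at 57.6 and 73.8 CPM in cluster 5. Neuron-like cells had 4 and 2 WNT3A UMI in 203 and 244 cells.

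WNT1, the ligand of the midbrain-hindbrain boundary and dorsal midline, was all but undetected. Replicate 1 had no WNT1 UMI in 1842 cells, which allows a share of cells with a UMI of up to 0.163%. In replicate 2 it had 5 UMI in 5 of 2310 cells, 1 in each. None of the 5 lay in the LMX1A-high cluster. It was not tested in any comparison because its counts were too low, and expression below this depth was not detectable.

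FZD10, a Frizzled receptor of the dorsal neural tube, was highest in the LMX1A-high cluster too. Its levels there were 77.8 and 91.5 CPM (34 and 69 UMI), against 16.3 and 12.7 CPM in all other cells, a log2 fold change of 2.74 (SE 0.25, edgeR adjusted p = 9.78e-27). Both libraries lay above cluster 15 (66.8 and 30.2 CPM) and cluster 11 (42.7 and 19.1 CPM), the next in order, whose values overlapped. No FZD10 UMI was found in the 34 and 72 cells of mesenchyme-like cluster 13, which allows up to 8.82% and 4.17% of cells with a UMI.

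LGR5, an R-spondin receptor and stem cell marker of the gut, had another distribution. It was lower in the LMX1A-high cluster, with 13.7 and 22.5 CPM (6 and 17 UMI) against 55.6 and 45.1 CPM in all other cells, a log2 fold change of -1.20 (SE 0.30, edgeR adjusted p = 7.16e-04). That call was lost by DESeq2 and by limma-trend, at adjusted p = 0.19 and 0.070. Of 8 calls in cluster 4 it was the single fall; 7 members rose there of the 9 tested, and SFRP1 was not called, while 20.8% of all genes tested in that cluster were called (10.6% higher and 10.2% lower). LGR5 rose in progenitor-like clusters 1 (130 and 106 CPM), 8 (80.8 and 128 CPM), 0 (96.0 and 103 CPM) and 2 (106 and 59.7 CPM), and also in cluster 7 (90.3 and 45.5 CPM), an unnamed cluster whose best list was that of neurons. It was not called in progenitor-like clusters 5, 12 and 18. Cluster 1 lay above clusters 0, 2 and 7 in both libraries, and cluster 8 overlapped all of these. The log2 fold changes were 1.08 (SE 0.17) in cluster 1 and 1.03 (SE 0.15) in cluster 8, by edgeR at adjusted p = 9.29e-07 and 4.22e-11. Of all genes tested, 20.9% were called higher in cluster 1, 25.7% in cluster 8, 23.3% in cluster 0, 22.0% in cluster 2 and 19.8% in cluster 7. In cluster 0 the LGR5 call was lost by DESeq2, and in clusters 2 and 7 by DESeq2 and limma-trend.

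Depth moved with the LGR5 level. Over the 18 tested clusters Spearman's rho between the mean LGR5 level and the cluster's median UMI per cell was -0.76, while the other members lay between -0.22 and 0.27. The points share the same 2 libraries, and this is a description. The shallowest cluster, cluster 9, with a median of 1558 UMI, had the highest single LGR5 value, 171 CPM in replicate 2 from 14 UMI, and 78.5 CPM in replicate 1 from 5 UMI. The part of depth in the LGR5 order was not tested.

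The antagonists differed from one another. SFRP2 was highest in the LMX1A-high cluster at 300 and 202 CPM (131 and 152 UMI) against 63.1 and 54.2 CPM in all other cells, a log2 fold change of 2.21 (SE 0.15, edgeR adjusted p = 2.95e-48). The next clusters were 11 (199 and 133 CPM), 12 (134 and 156 CPM) and 1 (127 and 128 CPM). Clusters 11 and 12 overlapped, cluster 1 lay below both, and all 3 lay below cluster 4, narrowly for cluster 11. One cell of cluster 4 held 46 SFRP2 UMI, and the 3 highest cells held 31.4% of its SFRP2 UMI.

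SFRP1 peaked instead in cluster 20, a non-neural cluster of 31 and 42 cells. It stood at 198 and 207 CPM there (48 and 66 UMI in 10 and 17 cells), against 127 and 69.8 CPM in cluster 18 and 57.7 and 78.4 CPM in cluster 11. Cluster 20 tied between mesenchyme and cardiomyocyte markers, with 5 of 11 mesenchyme markers detected. Summed mesenchyme markers stood at 3029 and 2689 CPM, cardiomyocyte markers at 1383 and 220 CPM and epithelium markers at 1979 and 3298 CPM. In its 24 and 32 cells with more mesenchyme than cardiomyocyte marker UMI, SFRP1 stood at 230 and 242 CPM. In the LMX1A-high cluster SFRP1 was at 34.3 and 29.2 CPM, and its log2 fold change of 0.05 had a 95% interval from -0.50 to 0.60.

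FRZB, a secreted antagonist known from cartilage, had few counts, 54 and 73 UMI in all cells. It was highest in cluster 20, at 32.9 and 28.3 CPM (8 and 9 UMI), and in the LMX1A-high cluster, at 13.7 and 29.2 CPM (6 and 22 UMI), and these overlapped. By edgeR the log2 fold change was 2.98 (SE 0.76, adjusted p = 1.81e-03) in cluster 20 and 2.68 (SE 0.50, adjusted p = 1.69e-06) in cluster 4. SFRP1 rose by 2.91 (SE 0.25, edgeR adjusted p = 2.89e-28) in cluster 20. There 6 of 9 tested members were called, where 10.4% of all genes tested were called (5.06% higher and 5.39% lower): SFRP1, FRZB and RSPO3 rose, and WNT3A, LGR5 and SFRP2 fell. By limma-trend none of the 6 passed in cluster 20, with SFRP1 at adjusted p = 0.13. RSPO3 was not called there by DESeq2, with RLE size factors or without a filter on low counts either, nor with total counts alone, at a log2 fold change of 0.47 and edgeR adjusted p = 0.21. FRZB in cluster 4 was not called by limma-trend (adjusted p = 0.060).

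Over all 18 clusters, 97 of 162 pairs of a tested member and a cluster were called, 28 as rises and 69 as falls. All 97 had the same direction in both libraries, but they were called on these same 2 libraries. This agreement was therefore largely set by the call. Over all genes and clusters 38.7% of tests were called, 18.3% higher and 20.4% lower. Because the LMX1A-high cluster weighs on the summed rest, the fits were repeated with that cluster left out of the rest, an alternative added after the data had been seen. Over the other 17 clusters, 71 pairs were then called, 28 as rises and 43 as falls, in place of 89, beside 39.9% of all tests (18.9% higher and 21.0% lower). RSPO3 then rose in clusters 5, 6, 11 and 15, where it had not been called, by 1.06, 1.03, 0.54 and 0.94 on the log2 scale, and in clusters 13, 14 and 20 by 2.98, 1.58 and 1.38. RSPO2 rose in cluster 12 by 2.66, a value that rests on 7 cells.

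The next comparison used no clusters. A roof plate gate took cells with a UMI of LMX1A and of MSX1, MSX2, GDF7, BMP6 or ZIC1 and none of SHH or FOXA2. The gate held 46 and 54 cells, of which 48.0% lay in cluster 4, and was set against 965 and 1303 cells outside it with a SOX2 UMI. A SOX2 UMI was not required in the gate itself, so the arms also differ in this. RSPO1 stood at 96.1 and 125 CPM in the gate against 7.90 and 6.95 CPM, RSPO2 at 477 and 416 against 11.8 and 24.6 CPM and RSPO3 at 992 and 1040 against 102 and 109 CPM. For all 3 both libraries of the gate lay above both libraries of the other cells. How many of all genes did so, here or in the later comparisons, was not counted. The log2 fold changes were 3.87 (SE 0.30), 4.56 (SE 0.17) and 3.22 (SE 0.13), at edgeR adjusted p = 1.60e-34, 3.77e-154 and 3.63e-120.

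Of the 9 members tested in this comparison 7 rose and none fell, while 3.93% of all genes tested were called (2.19% higher and 1.74% lower). The members' median log2 fold change was 2.03, against -0.02 over all genes tested. The members were chosen with earlier results of these data known, so this contrast is a description and no test of the list. WNT3A rose by 2.03 (SE 0.19), FZD10 by 1.90 (SE 0.28), SFRP2 by 0.96 (SE 0.18) and FRZB by 2.37 (SE 0.62), the last from 7 and 8 UMI. FRZB was not called by DESeq2 or limma-trend (adjusted p = 0.26 and 0.072), nor SFRP2 by DESeq2 (adjusted p = 0.092). LGR5 went opposite ways, at 18.6 CPM in the gate against 54.2 in replicate 1 and 79.9 against 43.5 in replicate 2, and SFRP1 had a log2 fold change of 0.01 with a 95% interval from -0.65 to 0.66.

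**Figure D4:**
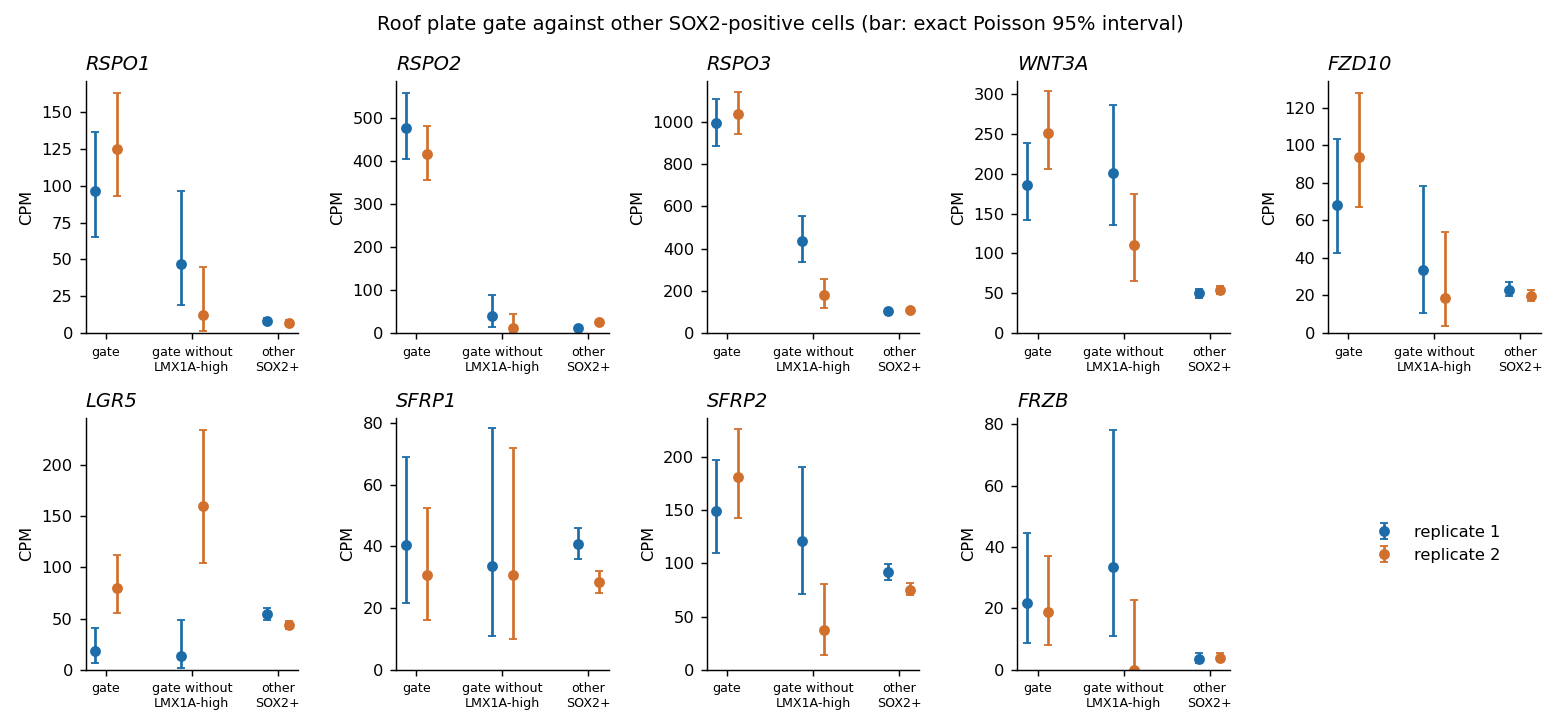
CPM of the members but WNT1 in the roof plate gate, in the gate without cells of cluster 4 and in SOX2-positive cells outside the gate. Each point is 1 library with its exact Poisson 95% interval, which covers counting error only. The 3 R-spondins are high in the gate (RSPO2 at 477 and 416 CPM) and lower, with wide intervals, in its 25 and 27 cells outside cluster 4 (RSPO2 at 40.2 and 12.3 CPM).

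Without the LMX1A-high cluster, another alternative added after seeing the data, the gate kept 25 and 27 cells and 3 members were called in place of 7, where 2.92% of all genes were called (0.603% higher). RSPO3 rose by 2.03, RSPO1 by 3.09 and WNT3A by 1.47 on the log2 scale. In these cells RSPO3 stood at 436 and 179 CPM and WNT3A at 201 and 111 CPM. RSPO1 rested on 7 and 2 UMI. RSPO2, at a log2 fold change of 2.70 and edgeR adjusted p = 0.062, came from 1 cell in each library, and FZD10 and SFRP2 had log2 fold changes of 0.16 and -0.25.

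Other WNT pathway genes were counted over a list of 83, of which 82 were in the table. In the roof plate gate 57 were tested, 11 rose and 1 fell, with a median log2 fold change of 0.12, beside 2.19% of all genes higher and 1.74% lower. Of the 8 ligands tested 4 rose, among them WNT4 by 4.53 (27.9 and 30.6 CPM against 1.11 and 1.28) and WNT8B by 3.58 (37.2 and 54.1 CPM against 3.16 and 4.17). WLS, which carries WNT ligands to the cell surface, rose by 0.73, at 360 and 411 CPM against 232 and 221. Of 16 nuclear factors and common targets 2 rose and 1 fell, with a median of 0.23; SP5 and BAMBI, both common targets, rose by 2.45 and 1.84. Receptors rose in 2 of 13 cases, ROR2 by 0.82 and ROR1 by 0.70. In the LMX1A-high cluster 14 of 64 rose and 4 fell, beside 10.6% and 10.2% of all genes tested, with WNT8B at 43.5 and 51.7 CPM against 1.97 and 2.27 in all other cells.

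Along the dorsal to ventral axis, cells with SOX2 and a UMI of PAX3 or PAX7 (269 and 315) were set against cells with SOX2 and a UMI of NKX6-1, NKX2-2, OLIG2, FOXA2 or SHH (402 and 618). WNT3A was higher dorsally, at 83.5 and 99.4 CPM against 24.0 and 27.5, and so was SFRP2, at 174 and 162 against 50.1 and 29.3 CPM. Neither overlapped between the arms, which was not counted over all genes. The log2 fold changes by edgeR were 1.54 (SE 0.15, adjusted p = 1.34e-22) and 1.85 (SE 0.12, adjusted p = 3.93e-47). LGR5 rose by 0.87 (SE 0.15), at 73.5 and 77.3 against 42.7 and 27.5 CPM.

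Of 8 members tested here 4 rose and none fell, while 50.3% of all genes tested were called (24.4% higher and 25.9% lower). The total is near the background, though all 4 calls were rises. The fourth, RSPO3, rose by 0.25 (SE 0.11, edgeR adjusted p = 0.0432) at 142 and 135 against 80.9 and 108 CPM, and by 0.83 without the LMX1A-high cluster. It was not called by DESeq2 (adjusted p = 0.43). Its direction rested on replicate 1, since the value in replicate 2 alone was -0.024. RSPO2 had opposite directions in the libraries, 50.6 against 11.5 CPM in replicate 1 and 12.4 against 27.2 CPM in replicate 2. FZD10 was not called at 0.25 but was with total counts alone (0.54, edgeR adjusted p = 0.027), since TMM scaling moved all fold changes of this comparison by 0.29.

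Along the head to trunk axis, SOX2-positive cells with OTX2 and no HOX gene (42 and 46) were set against those with a HOX gene and no OTX2 (381 and 553). RSPO2 stood at 502 and 499 CPM in the OTX2 arm against 8.10 and 16.7, a log2 fold change of 5.20 (SE 0.20, edgeR adjusted p = 2.96e-141). RSPO3 was at 884 and 748 against 108 and 117 CPM, RSPO1 at 68.8 and 72.5 against 9.11 and 7.24 CPM, SFRP2 at 396 and 357 against 102 and 77.7 CPM and WNT3A at 155 and 191 against 44.9 and 55.8 CPM. All 5 rose, of 8 tested, where 6.01% of all genes tested were called (2.78% higher and 3.23% lower). None of the 5 overlapped between the arms, which was not counted over all genes. FZD10, at 37.8 and 58.0 against 27.7 and 20.9 CPM, was not called (log2 fold change 0.94, edgeR adjusted p = 0.114).

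Cells of the LMX1A-high cluster made up 44.3% of the OTX2 arm. Without them RSPO3, WNT3A and SFRP2 had log2 fold changes of 0.12, 0.26 and 0.51 and were not called. RSPO2 alone was called, by 4.19, where 11.3% of all genes were called (3.21% higher), and its 2 and 22 UMI came from 1 and 2 cells. RSPO1 was not tested there. LGR5 in the OTX2 cells outside cluster 4 stood at 93.7 and 99.7 CPM, against 48.8 and 41.6 CPM in HOX cells outside it, a log2 fold change of 0.84 that was not called (edgeR adjusted p = 0.14).

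Between neural progenitor-like cells (952 and 1070) and neuron-like cells (203 and 244), neither of which includes cluster 4, WNT3A showed the largest change of the members. It stood at 80.1 and 83.0 CPM in progenitor-like cells against 3.30 and 1.25 CPM, a log2 fold change of 4.90 (SE 0.36, edgeR adjusted p = 3.73e-36). RSPO3 went the other way, at 64.8 and 52.5 CPM against 131 and 216 CPM in neuron-like cells, a log2 fold change of -1.89 (SE 0.16, edgeR adjusted p = 2.51e-17). LGR5 was higher in progenitor-like cells, at 86.4 and 80.9 against 31.3 and 18.8 CPM, a log2 fold change of 1.45 (SE 0.21, edgeR adjusted p = 6.49e-11). None of the 3 overlapped between the arms, which was not counted over all genes. The neuron-like arm leaves out unnamed cluster 7, in which 9 of 10 neuron markers were detected. In cluster 7 WNT3A was low too, at 5.42 and 3.50 CPM. RSPO3, however, stood at 5.42 and 0 CPM there, below both arms, and LGR5 at 90.3 and 45.5 CPM, above neuron-like cells. The RSPO3 and LGR5 contrasts therefore do not extend to cluster 7.

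Of 9 members tested 6 rose and 1 fell in progenitor-like cells, beside 58.7% of all genes tested (29.1% higher and 29.6% lower). The rises were a larger share than over all genes, and the falls a smaller one. The members were chosen with earlier results of these data known, so this is no test of the list. FZD10 rose by 2.13 (SE 0.48), from 2 and 6 UMI in neuron-like cells, and RSPO2 by 1.87 (SE 0.63) from 1 and 4. SFRP2 and SFRP1 rose by 0.66 (SE 0.19) and 0.55 (SE 0.25), and the SFRP1 value was 1.53 in replicate 1 alone and -0.036 in replicate 2 alone. RSPO2, SFRP1 and SFRP2 were not called by DESeq2. With arms drawn by marker gates in place of clusters, 53 cells of cluster 4 entered the progenitor arm, RSPO3 was called in the other direction at 0.38, and LGR5 was not called, at -0.14 (edgeR adjusted p = 0.47). Of the other pathway genes 26 of 57 tested rose in progenitor-like cells and 10 fell, beside 29.1% and 29.6% of all genes, with WLS up by 1.38 and TCF7L1, a transcription factor of the pathway, by 2.62.

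**Figure D5:**
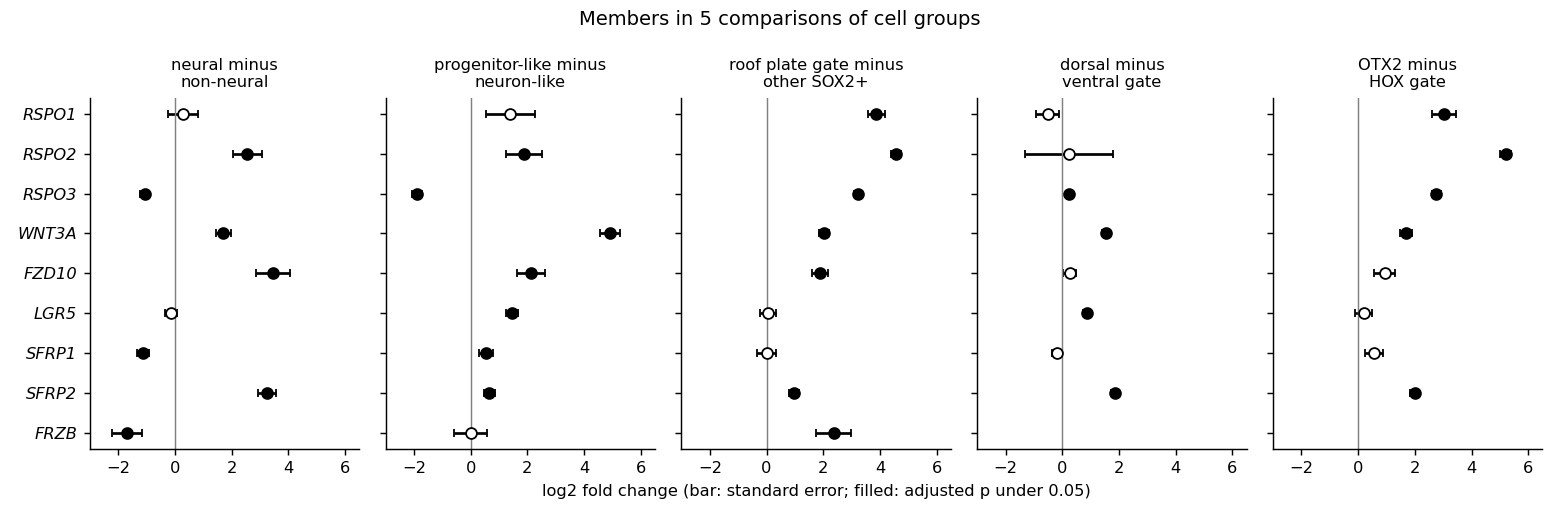
log2 fold change of each tested member in 5 comparisons of cell groups, with its standard error; filled points passed an adjusted p of 0.05 by edgeR. The R-spondins stand at 3.87, 4.56 and 3.22 in the roof plate gate and at 3.03, 5.20 and 2.76 in OTX2 cells, and in the neural panel the 3 falls are lost with total counts alone.

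Neural cells (1737 and 2149, median 5446 UMI) were last set against non-neural cells (105 and 161, median 9646 UMI), the latter being clusters 13 and 20 and the erythroid-like, epithelium-like and both trophoblast-like clusters. SFRP2 was at 79.6 and 69.4 CPM in neural cells against 5.55 and 3.78 CPM, a log2 fold change of 3.26 (SE 0.32, edgeR adjusted p = 3.91e-17). WNT3A was at 58.7 and 57.3 against 6.47 and 13 CPM, a log2 fold change of 1.71 (SE 0.27). FZD10, at 20.5 and 18.8 CPM, had 2 and 1 UMI in non-neural cells, and its log2 fold change of 3.45 had a 95% interval from 2.27 to 4.62. RSPO2 rose by 2.56 (SE 0.50), at 27.9 and 35.4 against 7.40 and 0.540 CPM, with most of its neural UMI in cluster 4. It was 1.24 in replicate 1 alone and 4.91 in replicate 2 alone. With both arms drawn by marker gates, which left 14 cells of cluster 4 in the neural arm, RSPO2 was called in the other direction at -1.04 (edgeR adjusted p = 0.038) and WNT3A was not called, at 0.39. For all 4, both neural values lay above both non-neural values, which was not counted over all genes.

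RSPO3 (log2 fold change -1.07, SE 0.16), SFRP1 (-1.13, SE 0.21) and FRZB (-1.68, SE 0.52) fell in neural cells. These falls depend on scaling: TMM moved all fold changes of this comparison by 0.77, and with total counts alone they were -0.29, -0.35 and -0.91, at edgeR adjusted p = 0.090, 0.14 and 0.10. Erythroid list counts, at 89835 and 121799 CPM of the non-neural sum, moved with this arm. Without the erythroid-like cells, an alternative added after seeing the data, the 3 falls were called at -1.32, -1.36 and -1.94 with TMM. They also depend on how the non-neural cells are drawn. With all deposited barcodes SFRP1 was called in the other direction, at 2.94, and at a clustering resolution of 0.5 likewise, at 2.47, while FRZB was not called in either, at -0.11 and -0.20. Nor was FRZB called by DESeq2 or with arms by gate. With TMM 7 of 9 members were called, 4 higher and 3 lower, beside 55.2% of all genes tested (28.0% higher and 27.2% lower); with total counts alone 6 were called, all higher, beside 69.8% (55.7% higher). In CPM RSPO3 stood at 122 and 140 against 144 and 177, SFRP1 at 35.0 and 30.6 against 47.2 and 37.3 and FRZB at 4.40 and 4.39 against 9.25 and 7.56. The arms did not overlap for these 3, which was not counted over all genes.

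The non-neural levels of 4 members came mostly from 1 cluster each. Without cluster 20, SFRP1 had 3 and 3 UMI and FRZB 2 and 5 UMI in non-neural cells. Without cluster 13, RSPO3 stood at 49.2 and 72.4 CPM in them. LGR5 came from the erythroid-like cells, which had 110 and 109 CPM (25 and 59 UMI in 8 of 9 and 13 of 22 cells, up to 22 in a cell). Without them non-neural LGR5 stood at 7.02 and 3.82 CPM, and its log2 fold change went from -0.13, not called, to 2.68 (edgeR adjusted p = 6.29e-12). The same 31 cells had 1 UMI of RSPO3, 2 of SFRP1 and none of WNT3A or SFRP2.

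The genes most like each member over the 36 sums of cluster and library were listed by Pearson's r of log2(CPM + 10), among 11262 genes; the sums share libraries and cells, and r is a description. For RSPO1 they were LIM2 (r = 0.91) and SLC24A4 (0.88), and for RSPO2 LIM2 (0.88) and SPARCL1 (0.86). WNT3A was nearest to PIWIL1 (0.87) and ZIC4 (0.77), SFRP2 to ZIC4 (0.76) and SOX1 (0.73), and FZD10 to WNT8B (0.74) and SP5 (0.72). LGR5 was nearest to CHD8 (0.90) and RAD54L2 (0.89), RSPO3 to DLK1 (0.67) and MEST (0.65), SFRP1 to RAB38 (0.76) and WT1 (0.68) and FRZB to CLMP (0.75) and ECI2 (0.71). Among the members themselves RSPO1 and RSPO2 had r = 0.86, WNT3A and SFRP2 0.69, and RSPO3 and LGR5 -0.44. The groups come from clustering the same cells, and genes left out of clustering can vary together with those used, which limits every comparison between clusters.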

How the data were processed

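The authors deposited raw UMI counts per gene and barcode, per the file headers, in 1 table of both libraries. Cell Ranger (version not given in the sources used here), R 4.1.2, Seurat 4.3.0 and the build bosTau9 are named per the submitters' processing notes. Cells with at least 500 genes, 1000 UMI and at most 15% mitochondrial counts were kept. A doublet caller marked 0.168% of them, so doublets remain possible. Cells were clustered with scanpy 1.11.5 (2000 variable genes, 30 components, 15 neighbours, Leiden resolution 1.0, seed 0), leaving out the WNT pathway genes, GFP and a seeded 50% of other non-marker genes, 8891 in all. A marker counted as detected at 20 CPM and 25% of its highest cluster. Counts were summed per group and library and tested with edgeR 4.0.16 (R 4.3.3, robust quasi-likelihood, TMM, filterByExpr), library as a term, Benjamini-Hochberg over all held-out genes tested, threshold 0.05. Both arms of each comparison come from the same 2 libraries, which pairs the sums. DESeq2 1.42.0, limma 3.58.1 (prior count 2), other scalings, filters, resolutions and gates were alternatives. On simulated data with 200 changed genes, the test recovered 58% of 2-fold and 97% of 4-fold changes for cluster 4, with 4 false calls among 6692 genes. The changed genes were drawn from those with higher counts, and all genes had the same dispersion. These rates therefore do not cover members with few counts, such as FRZB, RSPO1 and FZD10.

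The members and lists were chosen with earlier results of these data known. The 10 members are always named; of other pathway genes at most the 2 called with the largest change per role and comparison; for likeness the 2 genes of highest r. Intervals on CPM are exact, at 95%, and cover counting error only. Those on log2 fold changes are normal approximations at 95% from the standard error of the edgeR fit. The limit for a count of 0 is 3 counts over the number of cells. Columns of other samples numbered 0. No sequence or coordinate was used here.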

Additional observations from a re-analysis of the deposited data

How the results depend on the processing

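Of 1170 alternative values of 140 single results, 995 were labelled the same, 147 lost the call, 5 gained one and 23 took the other sign. The same meant an unchanged direction and side of the threshold, or a change of sign where neither value was called. The 23, and the sign changes named below, had a call in the main fit or in the alternative. Of 280 values from 1 library alone, 270 kept the direction. By DESeq2 4 members in place of 7 were called between progenitor-like and neuron-like cells, and 62 pairs of member and cluster in place of 97. The share of all genes called was not counted for DESeq2 or without the replicate block. With total counts alone it was counted for the neural comparison only, at 69.8%. Elsewhere the counts under these settings do not tell a change in the members from a change over all genes. Without the LMX1A-high cluster 3 in place of 7 were called in the roof plate gate and 1 in place of 5 in OTX2 cells. The thinned share of cells with RSPO3 in that cluster, 76.2% as the mean of both libraries, was 55.5% at 1000 UMI and 89.3% unthinned. Without the replicate block (the library term), counts of called members were 7 for neural, 6 for progenitor-like, 7 for roof plate, 3 for dorsal and 5 for OTX2 cells and 97 for the pairs; with total counts alone they were 6, 7, 7, 5, 5 and 102. Signs changed for the neural comparison in RSPO2 (-1.04 by gate), LGR5 (0.65 with total counts alone, 2.68 without erythroid-like cells) and SFRP1 (2.94 with all barcodes, 2.47 at resolution 0.5), for the progenitor-like comparison in RSPO3 (0.38) and LGR5 (-0.14) by gate and SFRP1 (-0.036 to 1.53 by single library), for the roof plate gate in SFRP2 (-0.25 without the LMX1A-high cluster) and for the dorsal gate in RSPO3 (-0.024 to 0.54 by single library). Against the mean of clusters they changed for WNT3A in clusters 0, 2, 8 and 10 (0.88, 0.41, 0.99 and 0.26), SFRP2 in 0 and 5 (0.0080 and 0.15), RSPO3 in 12 (0.15) and RSPO2 in 2, 7, 15 and 18 (1.18, 0.83, 1.16 and 0.26). With cluster 4 left out of the rest, RSPO2 in these last 4 was 1.06, 0.63, 0.98 and 0.090. The gate at 2 UMI could not be fitted for OTX2, with 17 cells in replicate 1. For changes in sign not explained by the cells each setting adds or removes, the cause was not tested. At this depth WNT1 had 0 and 5 UMI and FRZB 54 and 73 UMI in all cells.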

Other observations

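The count table has a row for GFP, which was picked after its values were seen and whose meaning the labels do not give. Its level in the LMX1A-high cluster was 1882 and 2311 CPM, against 1626 and 1758 CPM in all other cells. Mesenchyme-like cluster 13, second in RSPO3, had 57.1 and 46.9 CPM of GFP, and neuron-like cluster 14 had 2716 and 2324 CPM of GFP with 0 and 1 RSPO2 UMI. TTR, a transthyretin gene known from choroid plexus and liver, had 28 and 281 UMI in the LMX1A-high cluster, 68.9% of them in 3 cells. The 8 and 14 cells with a TTR UMI had RSPO2 at 870 and 945 CPM, and those without at 513 and 431 CPM.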
